A study of Mus musculus with 10 samples.

Results

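The sites described here are the genomic regions where a p65 peak was called in all 3 libraries of RAW264.7 cells treated with LPS and skatole, in none of the 3 LPS libraries and in none of the 3 DMSO libraries. They were selected on the peak calls themselves, so their presence under LPS+Skatole and their absence elsewhere describe the rule and are not findings. Peaks from the 9 lists were merged where they overlapped by at least 1 bp on chromosomes 1 to 19, X and Y, which gave 235070 regions. The rule kept 803 of them, or 0.342% of all regions. It kept 3.00% of the 26758 regions that had a peak in all 3 LPS+Skatole lists.

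RAW264.7 is a mouse macrophage-like cell line. In the DMSO group the cells received only the solvent, in the LPS group they received DMSO and lipopolysaccharide, a component of the outer membrane of bacteria that macrophages respond to, and in the LPS+Skatole group they received lipopolysaccharide and skatole, an indole compound that gut bacteria make from tryptophan. Treatment lasted 12 h, and each library was made from 200000 cells. Binding was mapped with CUT&Tag, in which an antibody guides a transposase to a chromatin protein and the fragments that the enzyme cuts out are sequenced. The antibody is given as one to p65 in the labels and as one to phosphorylated p65 in the study's methods, so the form of the protein that was captured cannot be told. A no-antibody sample, Blank, is the tenth of the 10 samples and was not analysed here. Whether it served as a control when the peaks were called is not given in the sources used here, so what the local background behind each fold and p was measured in is not known either. No further correction for transposition without antibody was made. Nothing states that the 3 libraries of a group came from separate cultures, and the spread between them may therefore be technical. There was no group with skatole alone, so an effect of skatole without LPS cannot be told apart from an effect of the combination.

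p65, encoded by Rela, is the transactivating subunit of the most common NF-κB dimer. In resting cells it is held in the cytoplasm by IκB proteins. LPS acts through the receptor TLR4 to have IκB degraded, after which p65 enters the nucleus and binds κB sites in promoters and enhancers of inflammatory genes. Skatole is also known as a ligand of the aryl hydrocarbon receptor, which binds the xenobiotic response element and drives detoxifying enzymes.

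Most of the 803 regions lay far from promoters, but a few lay on them, and the sequence around these start sites is the only sequence at the regions for which a reference of the same build was used. In RefSeq (GRCm38.p6), 23 of the regions overlapped the 250 bases upstream of an annotated start, which made 26 windows of 23 genes, 14 of them protein-coding. The same overlap was not counted for other sets of regions. By a related measure, a coding start within 1 kb of the strongest summit, the share was 2.16%. It was 4.64% of all merged regions and 38.9% of the regions of all 9 lists, so promoters are not a trait of this set. Windows are shown for 5 of these coding genes, chosen after values were seen. In 4 of them the strongest summit lay inside the window, 191 bp upstream of the start of Nqo1, 155 bp upstream of Dgcr2, 188 bp upstream of Ctdsp1 and 71 bp upstream of Il1f9. Plscr3 has 3 annotated starts with a window at the region. The window of the first is shown because it held a κB consensus, and the summit lay 71 bp downstream of that start. The windows of the other starts held the summit, 174 and 201 bp upstream of the start, and none of the 5 motifs, and they are not shown because they overlap the gene. The windows are Nqo1 at chr8:107403206-107403455 (minus strand), Plscr3 at chr11:69846122-69846371 (plus strand), Dgcr2 at chr16:17891729-17891978 (minus strand), Ctdsp1 at chr1:74391359-74391608 (plus strand) and Il1f9 at chr2:24186226-24186475 (plus strand). Each runs 5′ to 3′ towards the gene, and capitals mark matches to the κB consensus, AP-1, the XRE core, the ARE or PU.1 on either strand.
Nqo1: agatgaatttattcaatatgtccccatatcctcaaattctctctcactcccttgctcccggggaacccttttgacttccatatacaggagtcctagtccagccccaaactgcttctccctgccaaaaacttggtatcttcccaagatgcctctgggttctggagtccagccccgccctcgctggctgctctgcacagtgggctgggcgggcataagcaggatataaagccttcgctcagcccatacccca
Plscr3: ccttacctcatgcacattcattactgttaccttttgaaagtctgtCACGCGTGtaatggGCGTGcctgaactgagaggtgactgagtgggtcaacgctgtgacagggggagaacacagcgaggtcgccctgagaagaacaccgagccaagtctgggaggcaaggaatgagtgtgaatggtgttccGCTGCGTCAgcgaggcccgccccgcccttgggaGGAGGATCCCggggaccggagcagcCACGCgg
Dgcr2: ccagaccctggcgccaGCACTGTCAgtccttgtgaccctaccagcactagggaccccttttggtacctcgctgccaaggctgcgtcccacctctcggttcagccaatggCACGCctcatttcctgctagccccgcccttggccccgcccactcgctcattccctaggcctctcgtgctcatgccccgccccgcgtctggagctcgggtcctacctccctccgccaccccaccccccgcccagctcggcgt
Ctdsp1: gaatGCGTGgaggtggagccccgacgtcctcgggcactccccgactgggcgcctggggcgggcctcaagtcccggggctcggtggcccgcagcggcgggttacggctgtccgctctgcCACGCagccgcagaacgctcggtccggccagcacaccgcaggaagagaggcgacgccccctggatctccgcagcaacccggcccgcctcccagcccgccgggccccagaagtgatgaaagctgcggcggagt
Il1f9: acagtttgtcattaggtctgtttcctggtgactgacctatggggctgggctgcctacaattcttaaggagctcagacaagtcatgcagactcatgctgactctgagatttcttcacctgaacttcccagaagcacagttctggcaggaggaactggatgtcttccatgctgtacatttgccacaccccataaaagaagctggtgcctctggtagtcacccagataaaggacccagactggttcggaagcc

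In the Plscr3 window the capitals at -32 to -23 are the κB consensus, those at -65 to -57 the ARE (the antioxidant response element bound by Nrf2, searched as TGACNNNGC), and the others the XRE core GCGTG, which occurred 4 times. Dgcr2 held 1 ARE, at -234 to -226, and 1 XRE core, and Ctdsp1 held 2 XRE cores. Cacna1b, a coding gene whose window is not shown, held 6 XRE cores and had its summit 49 bp upstream of the start. Nqo1 and Il1f9 held none of the 5 motifs in these 250 bases, which says only that these letters are not in this window. A window counted where any part of a region overlapped it, so the strongest summit can lie outside. At Ecsit, for example, it lay 992 bp upstream of the start. Over all 26 windows, 2 held the κB consensus (7.69%, against 7.25% of 32851 upstream windows in the table). AP-1, searched as TGANTCA, was in 3 (11.5%, against 6.75%), the XRE core in 5 (19.2%, against 28.2%), the ARE in 3 (11.5%, against 10.2%) and PU.1, searched as GAGGAAGT, in 2 (7.69%, against 2.44%). In 1 of the κB windows, that of Cd300ld5, the match overlapped the PU.1 match, and the summit lay 384 bp downstream of the start. The other κB window was that of Plscr3 shown above, so neither κB window held the strongest summit. At Gm32130, the other window with PU.1, the summit lay 405 bp upstream of the start, outside the window. The shares are thus of letters in the windows, not of letters at the summits. A match is a description of the letters, and 26 windows hold too few motifs to compare the shares.

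The regions on these start sites varied in strength. Nqo1, a quinone reductase and a standard Nrf2 target, had 47, 40 and 42 fragments at the summit in LPS+Skatole libraries 1, 2 and 3. Plscr3, a phospholipid scramblase, had 129, 113 and 90, Dgcr2 had 84, 113 and 56, and Ctdsp1, a small phosphatase of the RNA polymerase II tail, had 128, 134 and 138. Il1f9, an interleukin-1 family cytokine also called interleukin-36γ, had 25, 47 and 17. High counts did not mean a high fold. The fold is the authors' ratio of summit to local background, and its mean over the 3 libraries was 5.57 at Nqo1, 3.36 at Plscr3, 2.78 at Dgcr2, 1.57 at Ctdsp1 and 9.27 at Il1f9. The local background, relative to the lowest background of the library, was 36.4 times raised at Ctdsp1, the highest of all 803 regions, and 1.00 times at Il1f9. The mean count at Ctdsp1 was 1.05 times the smallest count, 127, that could have been called in the LPS libraries at such a background. Under 5 other settings of the rule, which the closing section gives, the Nqo1 and Plscr3 regions met it in all 5, those at Dgcr2 and Ctdsp1 in 2 and that at Il1f9 in 1.

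**Figure D1:**
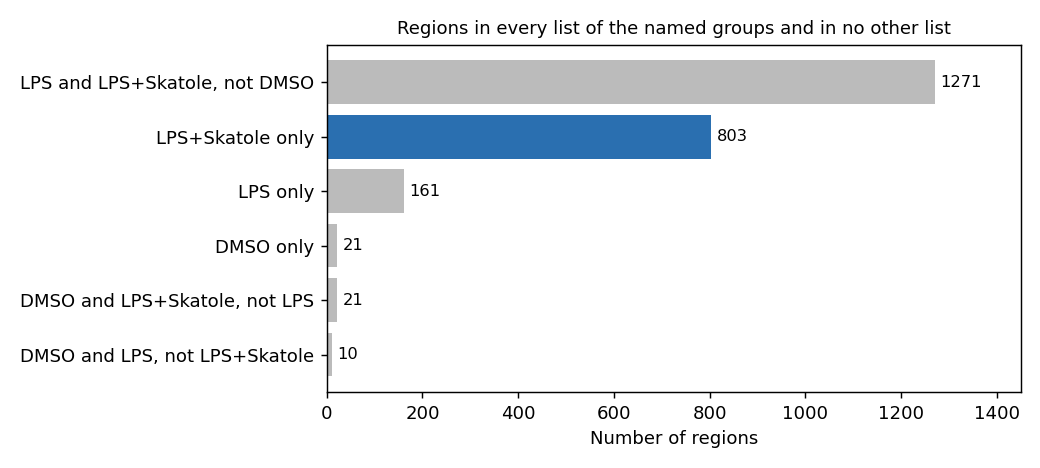
Number of merged regions (x axis) with a peak in every list of the groups named on the y axis and in no list of the other groups. The blue bar is the 803 regions described here, against 161 with the same pattern for LPS alone, 21 for DMSO alone and 1271 for LPS and LPS+Skatole together.

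As the plot of patterns shows, the same rule turned to the other groups kept fewer regions, 161 for LPS only and 21 for DMSO only. The lists differ in length, from 37551 to 43450 peaks for DMSO, 55637 to 63498 for LPS and 78136 to 80153 for LPS+Skatole. Every list ended at a −log10 p of 5. The lowest background of a library, a measure of its relative depth, was 2.23 to 2.34 fragments in LPS and 2.26 to 2.39 in LPS+Skatole libraries, and 1.09 to 1.40 in DMSO libraries. At that background a peak could be called from 11 fragments in every LPS and LPS+Skatole library, and from 8 or 9 in the DMSO libraries, where depth was lower. Absence of a peak under DMSO was therefore a weaker statement than absence under LPS. When all lists were shortened to the 37551 strongest peaks, 318 regions met the rule, and 167 of the 803 regions (20.8%) overlapped one of them. Without LPS library 3 the rule kept 1228 regions, and without LPS+Skatole library 1, 2 or 3 it kept 2578, 2615 or 2581. The part that list length plays in the other regions was not tested. Markers of macrophages had a peak at a gene end in all 9 libraries for 8 of 10 genes, against 1 of 3 T cell, 1 of 3 B cell and 0 of 3 fibroblast genes.

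As a description, it was counted how often a peak returned in libraries that a selection had set aside. For each of the 9 pairs of 1 LPS+Skatole and 1 LPS library left out, regions were selected that had a peak in the other 2 LPS+Skatole lists and in none of the other 2 LPS and 3 DMSO lists. This gave 3165 to 3311 regions per pair. The left-out LPS+Skatole library had a peak in 36.3% of them (35.8 to 37.1%, SD 0.536 over the 9 pairs). Of the same regions, 20.7% had one in the left-out LPS library (18.8 to 23.2%, SD 1.62). The share was higher in the LPS+Skatole library in 9 of 9 pairs, by 15.6 percentage points on average (13.7 to 17.4, SD 1.18). The pairs share libraries, so no p-value is given. An exact two-sided permutation test of 3 libraries against 3 could not give one under 0.1. Whichever LPS+Skatole library was left out, the regions with a peak in it were the same 1140, 1145 or 1222, set by the LPS library left out. In every pair they include the 803 regions, which by the rule have no peak in the left-out LPS library. The excess is therefore not independent of the rule and supports nothing beyond it. Most regions found in 2 LPS+Skatole libraries thus had no peak in the left-out one, and a smaller share, but not none, had one under LPS.

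The reverse selection was counted in the same way. Regions in 2 LPS lists and in none of 2 LPS+Skatole and 3 DMSO lists numbered 1025 to 1235 per pair. A peak was present in 24.0% of them in the left-out LPS library (22.1 to 27.9%, SD 1.95 over the 9 pairs) and in 26.5% in the left-out LPS+Skatole library (24.0 to 28.9%, SD 1.47). The left-out LPS library was the higher in 1 of 9 pairs. Whichever LPS library was left out, the regions with a peak in it were the same 270, 265 or 286. In every pair these include the 161 regions found only with LPS. The order is therefore not independent of the rule turned to LPS, and the contrast with the first selection supports nothing beyond it. The LPS+Skatole lists are longer. With lists of equal length the shares for the LPS+Skatole selection were 43.6% and 25.7%, and the LPS+Skatole library was again the higher in 9 of 9 pairs, with the same dependence on the regions that meet the rule. The reverse selection was not repeated with equal lists.

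**Figure D2:**
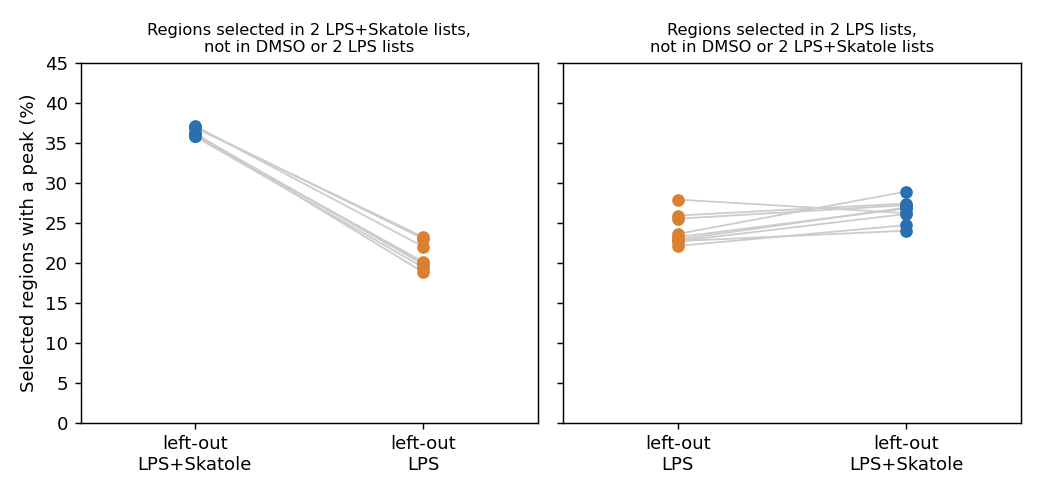
Share of selected regions (y axis, %) with a peak in a library that took no part in the selection; each grey line joins the 2 left-out libraries of 1 of 9 pairs. For the LPS+Skatole selection (left) all lines fall from 35.8 to 37.1% in LPS+Skatole to 18.8 to 23.2% in LPS libraries, and for the LPS selection (right) the ranges overlap.

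The regions were of middling strength. Summit counts, the number of fragments stacked at the summit, had a lowest, median and highest value of 11, 28 and 165 in LPS+Skatole library 1, 11, 27 and 150 in library 2 and 11, 29 and 193 in library 3. The counts of a region varied between the libraries with a median CV of 24.5%, and the highest was a median of 1.60 times the lowest. Across the 803 regions, log2 counts of a pair of libraries gave Pearson's r of 0.67, 0.62 and 0.64, as a description over regions from libraries of like depth. The median fold was 6.67. It was 9.91 in LPS+Skatole libraries for the 1271 regions found in all LPS and LPS+Skatole lists and no DMSO list (called LPS-induced regions below), and 14.5 for the 13824 regions of all 9 lists. Ranked by −log10 p within their list, the 803 regions had a median percentile of 52.6, the LPS-induced regions 73.2 and the regions of all 9 lists 88.3. All merged regions had a median fold of 5.33 and a median percentile of 37.8 in LPS+Skatole libraries. Regions in 2 LPS+Skatole lists and no other had 5.63 and 40.1.

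How far the regions stood above the calling limit of the LPS libraries was then read from the counts. For each region, the smallest count that would have been called in the LPS libraries was computed at the relative local background seen under LPS+Skatole. It ranged from 11 to 127 fragments. The mean LPS+Skatole count was a median of 2.03 times this limit (1.03 to 6.27). It was at least 2 times the limit in 430 regions (53.5%) and at least 3 times in 67 (8.34%). All 3 LPS+Skatole counts were at or above the limit in 759 regions, at least 2 times above it in 123 and at least 3 times in 14. LPS counts under the limit are not in the lists, so for these regions a count just below the limit and no binding at all cannot be told apart.

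**Figure D3:**
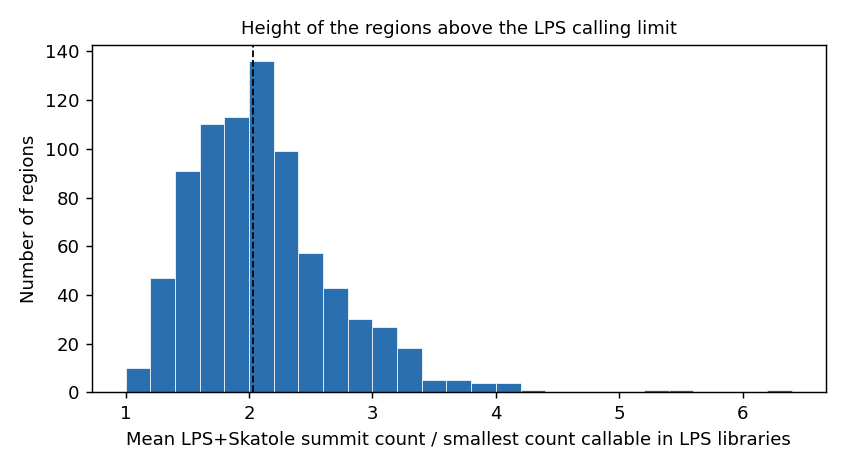
Histogram of the 803 regions by mean LPS+Skatole summit count divided by the smallest count callable in LPS libraries at the same relative local background (x axis, ratio; y axis, number of regions). The dashed line is the median, 2.03, and 67 regions reach 3 or more.

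Of the 10 regions of highest rank, all but 1 lay in a gene body or between genes. The gene table holds no exons, so exon and intron were not told apart. The region of highest rank, chr2:60863979-60865395, lay within Rbms1, which encodes a single-stranded nucleic acid binding protein. It had 65, 57 and 61 fragments in LPS+Skatole libraries 1 to 3, against a limit of 11 for LPS libraries, and a mean fold of 18.6. The 3 libraries were close to each other, and the nearest summit of any LPS list was 5980 bp away. The second, chr14:75236981-75239631, lay 4057 bp from Cpb2, a carboxypeptidase that slows the breakdown of fibrin. It had 47, 72 and 88 fragments, the largest multiple of the limit (6.27) among the 803 regions, with library 1 the lowest. The third, nearest to Pabpc2, had 47, 49 and 52 fragments.

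Others of the 10 highest ranked were in genes. A region in Pitpnc1, a phosphatidylinositol transfer protein, at chr11:107427450-107428615 had 43, 42 and 48 fragments. Its strongest summit lay 1 bp upstream of an annotated start of Gm11714, a gene that is not protein-coding. One in Mmaa, which serves vitamin B12 metabolism in mitochondria, at chr8:79273175-79274675 had 40, 51 and 36. One in Col23a1, a transmembrane collagen, at chr11:51328349-51328867 had 57, 84 and 55. The 3 regions had counts above the limits of 11, 11 and 25 in each LPS+Skatole library. Regions nearest to Zfp664, Serp2 and Ankrd66 lay between genes, 41018, 230685 and 6669 bp from them. The Ankrd66 region had 36, 60 and 77 fragments, so its libraries differed most among these 3, and the Serp2 region had 80, 83 and 63. Of the 10 highest ranked regions, 8 met the rule in each of 5 other ways to build it that are given in the closing section, and those near Cpb2 and in Mmaa in 4 of 5.

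At gene ends, the region of highest rank was chr11:58849823-58850402 at the predicted gene Gm12258, with 56, 49 and 56 fragments and a limit of 15. Next came chr6:131298184-131298929, 411 bp from Styk1, a receptor-like kinase, with 35, 48 and 41, and chr4:48538080-48538782 near Msantd3 with 34, 37 and 41. Among the 10 highest ranked at gene ends were also regions at Mdm4, an inhibitor of p53 (35, 37 and 59 fragments), Stk16, a kinase of the Golgi (38, 31 and 35), Tob2, an antiproliferative protein (42, 33 and 29), and Jup, a junction protein also called plakoglobin (36, 42 and 38). Gaa, the lysosomal enzyme that breaks down glycogen, had 109, 69 and 101, but its local background was raised 10.8 times and its mean was 1.86 times the limit of 50. Tmem252 had 44, 29 and 29 fragments and Tango2 31, 31 and 52.

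The members nearest to the edge of the rule had the lowest −log10 p. Just inside it were a region nearest to Gfra2 with 85, 67 and 60 fragments at a background raised 13.9 times, and one near Mxra7 with 43, 30 and 21, whose lowest −log10 p values were 5.04 and 5.01. Just outside, strong regions had been left out by a single list. One nearest to Tmco5 had 54 and 50 fragments and one in Tceanc2 had 74 and 66, in LPS+Skatole libraries 1 and 2 with no peak in library 3. One in Samd4b had 84, 91 and 68 fragments and a peak of 45 in LPS library 2, and one near Dnal4 had 95, 81 and 121 and a peak of 38 in LPS library 3. There were 5247 regions in 2 LPS+Skatole lists and no other, and 1098 in all 3 LPS+Skatole lists, 1 LPS list and no DMSO list.

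Position relative to genes was not used by the rule. The strongest summit lay within 3 kb of an end of a protein-coding gene in 102 regions, 12.7% (95% Wilson interval 10.6 to 15.2%, for counting error only), in a gene body in 379 (47.2%) and between genes in 322 (40.1%). Without LPS+Skatole library 1, 2 or 3 the share at gene ends was 16.4%, 15.3% or 16.9%, outside that interval. The LPS-induced regions gave similar shares of 13.9%, 45.6% and 40.5%. The regions of all 9 lists gave 52.8%, 28.7% and 18.5%, and all merged regions 17.1%, 47.3% and 35.6%. A start of a protein-coding gene in the table of starts, which is not complete and holds 79.9% of these genes, lay within 1 kb of the strongest summit in 17 of the 787 regions with such a start on their chromosome (2.16%), against 3.64% of LPS-induced regions, 38.9% of regions of all 9 lists and 4.64% of all regions. No test of these shares was run.

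**Figure D4:**
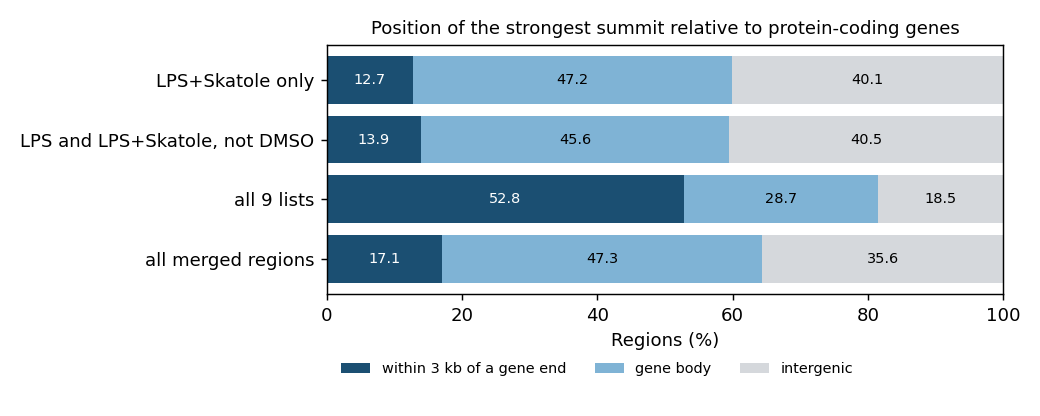
Share of regions (x axis, %) whose strongest summit lay within 3 kb of an end of a protein-coding gene (dark), in a gene body (mid) or between genes (light), for 4 sets of regions. The regions found only with LPS+Skatole have 12.7% at gene ends, against 52.8% for regions of all 9 lists.

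The regions had a median width of 873 bp, against 482 bp for all merged regions, 652 bp for those in 2 LPS+Skatole lists and no other, 1403 bp for LPS-induced regions and 2239 bp for regions of all 9 lists. The 3 LPS+Skatole summits of a region spanned a median of 308 bp (1 to 1806 bp) and lay within 250 bp of each other in 325 regions (40.5%). The median span was 248 bp in LPS-induced regions and 219 bp in regions of all 9 lists. It was 310 bp in the 1098 regions of all 3 LPS+Skatole lists, 1 LPS list and no DMSO list, and 326 bp in the 277 of all 3 LPS+Skatole lists, 1 DMSO list and no LPS list, so a span of this size was also found in the sets just outside the rule. The nearest summit of any LPS list was a median of 3351 bp away (at least 211 bp), within 1 kb in 67 regions (8.34%) and within 5 kb in 504 (62.8%). Within 5 kb it lay for 64.2% of the regions in 2 LPS+Skatole lists and no other, and for 71.3% of all merged regions. In 409 regions (50.9%) the local background was raised by more than 1.0% over that of the library. These had a median mean count of 36.3 and a median fold of 5.88, against 23.3 and 7.30 in the 394 others. A gene end lay within 3 kb in 64 of the 409 (15.6%) and 38 of the 394 (9.64%). The local background was raised in 32.0% of all merged regions, 48.9% of LPS-induced regions and 61.6% of regions of all 9 lists.

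The regions were spread over the genome. They made up 1.65% (chromosome 5) to 4.38% (chromosome 1) of the regions in all 3 LPS+Skatole lists on the autosomes, 3.62% on X and 0 of 14 on Y. Pairs of neighbours under 10 kb apart numbered 19, and those under 50 kb apart 55. In or within 3 kb of a coding gene were 488 regions (60.8%), at 493 of 21887 genes (2.25%). Of these genes 472 had 1 region, 17 had 2 and 4 had 3. Genes with a region had a median length of 69267 bp, against 17169 bp for all coding genes, and gene length was not adjusted for.

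The 4 genes with 3 regions were Hivep3, a zinc-finger protein that binds κB-like sequences, Peak1, a cytoskeletal pseudokinase, Ankrd11, a chromatin regulator, and Serpinb1b, a serine protease inhibitor. In Serpinb1b, which is the shortest of them, the region of highest rank, chr13:33088891-33090012, had 65, 72 and 101 fragments at a background raised 12.7 times. Its mean fold, 2.78, was the lowest of the 3, against 6.07 and 3.35. The others had 29, 18 and 30 fragments at chr13:33084069-33084764, and 26, 30 and 27 at chr13:33087650-33088556. In all, the peak number of Serpinb1b was 1, 0 and 1 under DMSO, 1, 2 and 0 under LPS and 4, 5 and 7 under LPS+Skatole, where the rule itself put at least 3. The highest-ranked region of Ankrd11, chr8:122906469-122906864, had 91, 111 and 117 fragments. Hivep3 reached 31, 29 and 45 at chr4:119786285-119786937, and Peak1 reached 39, 46 and 67 at chr9:56371365-56372009.

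The other peaks at the same genes were counted with the peaks of the regions left out. All 3 LPS+Skatole libraries had more of these other peaks than any LPS library at 94 of the 493 genes (19.1%). Over all coding genes, with all peaks counted, this was so at 1435 (6.56%), and over the 21394 genes without a region at 1242 (5.81%). The opposite order was seen at 1 of the 493 genes (0.203%) and at 124 of the 21394 (0.580%). Other peaks per gene with a region averaged 6.08, 6.38 and 6.70 under LPS and 8.28, 8.19 and 8.44 under LPS+Skatole. Genes without a region averaged 2.04, 2.11 and 2.28, and 2.63, 2.63 and 2.67. Genes with a region were longer and held more peaks, and the part of this in the difference of shares was not tested.

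Genes of pathways that NF-κB, the aryl hydrocarbon receptor or Nrf2 act in were looked up next, read against the 2.25% of all coding genes with a region. Of 53 NF-κB targets and inflammatory genes 1, Tnip1, had a region (1.89%), and of 35 genes of NF-κB and MAPK signalling 1, Map2k6 (2.86%). The lists do not hold every gene of a pathway. Il1f9, shown above, and Il1r1, an interleukin-1 receptor gene with a summit 127 bp downstream of a start, had a region but were in none of the lists. The aryl hydrocarbon receptor list gave 1 of 16 (6.25%), the list of macrophage lineage factors 1 of 14 (7.14%), oxidative phosphorylation 1 of 76 (1.32%) and alternative activation 0 of 23. The Nrf2 and glutathione list gave 5 of 51 (9.80%), with 6 regions. LPS-induced regions lay at 3.45% of all coding genes and, in the Nrf2 and glutathione list, also at 5 of 51 (9.80%). They lay at 4 of the 53 NF-κB targets (7.55%), 3 of the 35 signalling genes (8.57%), 1 of 16 genes of the aryl hydrocarbon receptor list (6.25%), 1 of 14 lineage factors (7.14%), 0 of 76 oxidative phosphorylation genes and 0 of 23 alternative activation genes. Counts this small carry no comparison between lists, and the lists were chosen with earlier results of these data known.

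The 5 Nrf2 and glutathione genes serve reduction and detoxification. At Nqo1 the region, chr8:107403174-107403786, had counts of 47, 40 and 42 against a limit of 21, all of them close together. Peaks at the gene in all numbered 1, 1 and 0 in DMSO, 0, 0 and 0 in LPS and 1, 2 and 2 in LPS+Skatole libraries. At Prdx1, a peroxidase that clears hydrogen peroxide, the region chr4:116698030-116701274 lay at a gene end and had 65, 40 and 62 fragments against a limit of 21. It is shared with the neighbouring gene Mmachc, and the nearest annotated start of a coding gene lay 9067 bp from its strongest summit. Prdx1 also had other peaks, which numbered 1, 2 and 3 in DMSO, 4, 2 and 4 in LPS and 8, 7 and 8 in LPS+Skatole libraries. The LPS+Skatole numbers there lay above the LPS numbers, an order seen at 19.1% of the genes with a region and 6.56% of all coding genes.

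Gclm, the modifier subunit of the enzyme that starts glutathione synthesis, had 2 regions. The one in the gene body, chr3:122252389-122252926, had 35, 21 and 29 fragments against a limit of 13. The one 2074 bp outside the gene, chr3:122242564-122243545, had 41, 58 and 86 against a limit of 44, so its count in library 1 was under the limit. Other peaks at Gclm numbered 5, 6 and 2 in LPS and 4, 5 and 4 in LPS+Skatole libraries, which overlap. Mgst2, a microsomal glutathione S-transferase, had 50, 37 and 68 fragments at chr3:51654262-51655005 against a limit of 24, and its other peaks numbered 4, 5 and 4 in LPS and 6, 6 and 7 in LPS+Skatole libraries. Idh2, which supplies NADPH in mitochondria, had 13, 22 and 17 at chr7:80106117-80106904 against a limit of 11, and its other peaks, 0, 1 and 1 in LPS and 0, 3 and 1 in LPS+Skatole libraries, overlapped as well. At Nqo1 they numbered 0, 0 and 0 in LPS and 0, 1 and 1 in LPS+Skatole libraries. Of these 6 regions, that of Nqo1 met the rule in all 5 other settings and that of Idh2 in none.

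In the remaining lists the regions were single ones. Tnip1, a partner of A20 that restrains NF-κB, had one at chr11:54965526-54966700, with 24, 35 and 32 fragments against a limit of 18. The edge of this region lay within 3 kb of the gene, and its strongest summit lay 3533 bp away. Map2k6, the kinase that activates p38, had 41, 21 and 26 at chr11:110439299-110439918 against 15. Ugt1a6b, a glucuronosyltransferase of the detoxifying enzymes, had 82, 28 and 29 at chr1:88103020-88103625 against 22, with library 1 far above the others. Runx1, a transcription factor of blood cells, had 21, 14 and 28 at chr16:92633353-92634419 against 11. Its other peaks numbered 16, 18 and 24 in LPS and 27, 25 and 27 in LPS+Skatole libraries, without overlap. LPS+Skatole numbers above all LPS numbers were seen at 19.1% of the genes with a region and 6.56% of all coding genes. At Atp5j, a subunit of ATP synthase, the region chr16:84836820-84838131 had 11, 11 and 22 against 12, with 2 libraries under the limit, and it is shared with the neighbouring gene Gabpa. At Tnip1 other peaks numbered 6, 10 and 8 in LPS and 8, 11 and 6 in LPS+Skatole libraries. At Map2k6 they numbered 2, 1 and 0 against 0, 2 and 3, and at Atp5j 3, 2 and 2 against 3, 3 and 2. At Ugt1a6b they numbered 5, 8 and 6 against 13, 9 and 8. The groups overlapped or met at each of these genes.

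**Figure D5:**
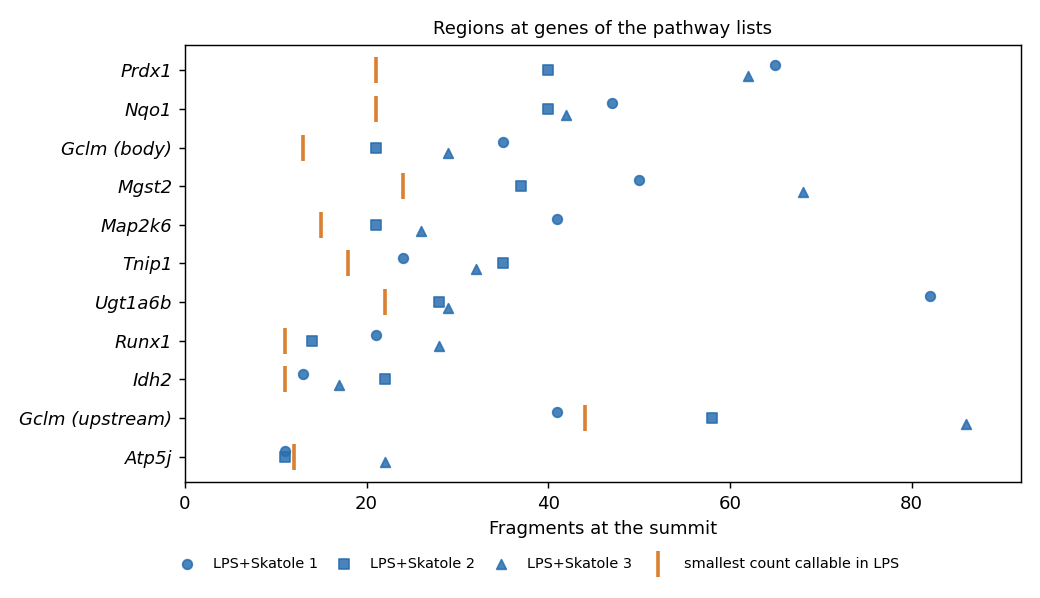
Fragments at the summit (x axis) in LPS+Skatole libraries 1 (circle), 2 (square) and 3 (triangle) for the 11 regions at genes of the pathway lists, ordered by rank, with an orange bar at the smallest count callable in LPS libraries. All counts lie above the bar at 9 regions, and 1 count at the upstream Gclm region and 2 at Atp5j lie below it.

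How firmly a region belongs to the set depended on how peaks were joined and filtered. Under 5 other settings, 118 of the 803 regions (14.7%) met the rule each time and 50 met it in none. The 118 had a median mean count of 39.3 and a median of 2.73 times the LPS limit, against 26.0 and 1.96 in the 685 others, and their summits spanned a median of 148 and 339 bp. The settings keep the stronger peaks and summits close together, so these differences follow from the split. A gene end lay within 3 kb in 14.4% and 12.4%.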

How the data were processed

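CUT&Tag peaks were analysed in 9 of the 10 samples, 3 each of DMSO, LPS and LPS+Skatole, grouped by the labels. Peaks had been called by the authors library by library, and each deposited list gives a score (the whole part of the −log10 p times a constant), a fold (ratio of summit to local background), a −log10 p, a −log10 q and a summit offset. The submitters' processing notes name the build mm10 and the tools fastp 0.20.1, HISAT2 2.1.0 and StringTie 2.0, with no roles. The peak caller is not given in the sources used here. Total reads are unknown, and precision was read from summit counts, which cover counting error only.

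Summit counts were recovered from the fold, taken as (count + 1)/(background + 1), and the Poisson −log10 p. At least 99.99% were whole within 0.02. Recovery and the region rule were tested on simulated data. The lowest background of a library, 1.09 to 2.39, stood for relative depth. Genes were those of the RefSeq table (GRCm38.p6), and promoter windows the 250 bases upstream of a RefSeq start. Regions were ranked by the lowest of their 3 LPS+Skatole percentiles by −log10 p. Named regions were the 10 highest ranked, the 10 highest ranked within 3 kb of a gene end, those at listed genes, those of genes with 3 or more, and the nearest to the edge of the rule. The regions on promoters and the other counts per gene were added after values were seen. Members and lists were chosen with earlier results of these data known. No test was run on the members. Alternatives changed the merging, list length, threshold, depth, libraries and windows. Python 3.11.15, NumPy 2.4.6, SciPy 1.17.1 and pandas 2.3.3 were used.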

Additional observations from a re-analysis of the deposited data

Results flagged for a closer look

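Peaks on unplaced or unlocalized sequences were outside the comparisons above. There were 424 of them in 173 regions over the 9 lists, and 1 region there had a peak in all 3 LPS+Skatole lists and in no other list. It is given for completeness as a signal in data that the rule left out.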

How the results depend on the processing

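Of 82 alternative values, 39 kept within an SD, the interval or 1.5 times the count, and 43 moved. The SD was over libraries for the fold and over pairs of libraries for the span. For the left-out LPS+Skatole and LPS shares it was over the 9 pairs, 0.536 and 1.62. These pairs share libraries, so that SD is not a spread between libraries, and a move beyond it says little. The number of regions was 318 with equal lists and 6050 with at least 2 of 3 LPS+Skatole libraries. Leaving out a library gave 873 to 2615, with 1228 without LPS replicate 3 and 2578, 2615 and 2581 without LPS+Skatole replicate 1, 2 or 3, since fewer lists then had to fit the rule. The share of regions at gene ends was 16.8% with at least 2 of 3 libraries, 5.11% and 35.7% with windows of 1 kb and 10 kb, and 13.2% to 16.9% with a library left out. With summits chained within 250 bp, equal lists, a −log10 q of at least 5, a summit of at least 8 times the background and counts scaled to the shallowest library, in this order, the left-out LPS+Skatole share was 32.2%, 43.6%, 40.1%, 45.6% and 44.4%, the median fold 6.86, 8.85, 6.89, 7.53 and 7.50, and the median span 176, 216, 292, 262 and 266 bp. The left-out LPS share was 25.7% with equal lists and 22.4% with the −log10 q filter. The LPS+Skatole share was the higher in 9 of 9 pairs in each of these 5. In every setting this order depends on the regions that meet the rule, so it supports nothing beyond the rule. With at least 2 of 3 libraries the median fold was 5.76 and the median span 196 bp. In 5247 of these regions the span was between 2 summits, as it was in every region when an LPS+Skatole library was left out. Such spans are not like those of 3 summits. With a library left out the fold was 5.85 to 6.87, the span 170 to 311 bp, and the left-out LPS+Skatole share, without a DMSO library, 37.2% to 37.9%. The comparisons with other sets of regions, the reverse selection and the other peaks per gene were not repeated under alternatives. The cause of these shifts was not tested. The 5 settings found 727, 318, 794, 692 and 672 regions, and 452, 167, 679, 482 and 447 of the 803 overlapped one of these. No paired analysis was possible because the results on these regions come from no test. The lower depth of the DMSO libraries limits what absence there can show.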
